A study of Mus musculus with 10 samples.

Results

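The 10 transcription factor (TF) genes described here are linked to the activation of fibroblasts, namely Runx1, Runx2, Sox9, Twist1, Snai1, Snai2, Prrx1, Tcf21, Scx and Meox1. They were chosen by name, as every probe of the array whose gene symbol was 1 of the 10. All 10 symbols were on the array, with 12 probes of 26423 in all, and all 12 passed the filter on low intensity, which left 19976 probes of 16113 genes. Runx1 and Prrx1 had 2 probes each. RNA came from the left ventricle of male C57BL/6J mice that were 8 weeks old and 20 to 25 g in weight at surgery. In 1 group the transverse aorta was banded (TAB), which loads the left ventricle with pressure, and the other group had a sham operation. Each operation had 1 sample on each of days 3, 5, 7, 14 and 28, so there were 5 TAB and 5 sham samples, and the number of mice behind a sample is not given in the sources used here. The condition label of the TAB sample of day 14 names the day after, while its title and its source name give day 14. The days serve as replicates of an average TAB effect, and p-values measure the spread of the TAB-to-sham difference between days. Each sample was hybridised to a 1-colour whole genome array, so a value is a log2 normalized intensity of 1 probe and cannot be set against the value of another probe.

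Resident cardiac fibroblasts keep up the collagen network between cardiomyocytes, and under pressure overload they divide, secrete matrix and can become myofibroblasts, the contractile form that leads to fibrosis. The 10 factors belong to several DNA-binding families. Runx1 and Runx2 carry the Runt domain and act with Cbfb. Sox9 has an HMG box, Snai1 and Snai2 are zinc finger repressors of epithelial genes, Twist1, Tcf21 and Scx are basic helix-loop-helix factors, and Prrx1 and Meox1 are homeodomain factors. Several of them are better known from cartilage, bone, tendon and embryonic mesenchyme. Tcf21 marks the resident cardiac fibroblast and its epicardial precursor, and Meox1 is known as a switch of the stressed cardiac fibroblast.

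Promoter windows of 250 bases before to 50 bases after a start site, from RefSeq on build GRCm38.p6, were matched to 6 of the 10 genes. There were 7 windows, since Runx1 has a distal and a proximal promoter. Meox1, Sox9, Scx and Snai2 had no window in the set used here. The bases before the start sites of Runx1, Runx2 and Snai1 are shown because their windows hold copies of the motif of the Runt or the Snail family, and the proximal promoter of Runx1, which holds none, is shown beside its distal one. All are written 5′ to 3′ on the strand of the gene, with the motifs in capitals. The RUNX motif was searched as TGTGGT on both strands. The Snail E-box was searched as CAGGTG on both strands. No copy of one overlapped a copy of the other in these windows.
Runx1 distal promoter, chr16:92826075-92826324, minus strand: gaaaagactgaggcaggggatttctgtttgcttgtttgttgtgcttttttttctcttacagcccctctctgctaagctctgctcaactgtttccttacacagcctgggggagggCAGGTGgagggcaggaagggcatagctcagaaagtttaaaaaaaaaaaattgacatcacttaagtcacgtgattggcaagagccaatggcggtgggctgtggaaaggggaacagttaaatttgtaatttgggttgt
Runx1 proximal promoter, chr16:92697330-92697579, minus strand: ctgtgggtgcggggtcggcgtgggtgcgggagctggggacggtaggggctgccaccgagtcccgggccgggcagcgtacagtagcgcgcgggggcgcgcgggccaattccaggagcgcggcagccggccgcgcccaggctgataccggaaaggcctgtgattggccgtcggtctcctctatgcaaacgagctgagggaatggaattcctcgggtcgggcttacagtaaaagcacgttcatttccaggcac
Runx2 promoter, chr17:44814628-44814877, minus strand: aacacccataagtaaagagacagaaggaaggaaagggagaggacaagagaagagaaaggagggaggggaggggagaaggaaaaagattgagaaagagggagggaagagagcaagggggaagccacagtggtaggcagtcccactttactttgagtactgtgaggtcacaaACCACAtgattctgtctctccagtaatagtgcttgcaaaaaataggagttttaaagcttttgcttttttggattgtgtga
Snai1 promoter, chr2:167537945-167538194, plus strand: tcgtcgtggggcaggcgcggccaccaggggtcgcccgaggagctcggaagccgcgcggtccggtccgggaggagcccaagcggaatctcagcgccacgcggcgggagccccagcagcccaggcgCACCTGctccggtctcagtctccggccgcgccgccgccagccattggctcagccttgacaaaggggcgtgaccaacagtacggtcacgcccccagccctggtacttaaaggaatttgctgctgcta

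Just past the start site, the windows of the distal Runx1 promoter and of Runx2 shared a run of 22 bases with 2 copies of the RUNX motif, in capitals, on the strand opposite to the gene. It began at base +24 in Runx1 and at base +19 in Runx2, counted from the first transcribed base as +1.
Shared stretch of Runx1 and Runx2: aaacaACCACAgaACCACAagt
With a further copy at base -80 of Runx2, that window held 3 RUNX motifs and the distal Runx1 window 2. Of all 32851 promoter windows of the same length, 16.8% held at least 1 copy and 1.81% at least 2. The Snail E-box was found at base -136 of the distal Runx1 promoter and at base -126 of the Snai1 promoter, and 20.2% of all windows held it. The windows of Twist1, Prrx1, Tcf21 and the proximal Runx1 promoter had neither run of letters. A match is a description of letters and no evidence of binding.

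Over the 5 days, 6 of the 10 genes were higher in TAB than in sham and none was lower. Meox1, Sox9 and Runx1 had measured mean log2 ratios of TAB over sham of 2.29, 2.70 and 2.11, of which those of Sox9 and Runx1 were 1.74 and 1.43 with dim values raised to the first percentile of the found spots of the array. Scx stood at 1.15, Snai2 at 0.85 and Twist1 at 0.82. Runx2, Tcf21, Prrx1 and Snai1 did not pass the test. Over all 16113 genes, limma with a Benjamini-Hochberg adjusted p under 0.05 called 9.19% higher and 7.87% lower in TAB. These are 1481 and 1268 genes, and 1871 and 950 with the arrays normalized within each operation, where the same 6 members were called, or 1782 and 855 with median scaling only, where Twist1 was not. No other member had an unadjusted p under 0.05. The median of the mean log2 ratio was 0.84 over the 10 genes, beside -0.03 over all genes. For 5 of the 10 genes, all but Twist1 among the 6, every TAB value lay above every sham value, which held for 9.99% of all genes. Runx1 is the one whose separation was lost with dim values raised to that percentile, which left 4. No member had every TAB value below every sham value, against 7.76% of all genes. The ratios kept their direction when a day was left out, and ran from 2.39 to 2.89 in Sox9, 2.09 to 2.44 in Meox1, 1.80 to 2.52 in Runx1, 1.05 to 1.28 in Scx, 0.73 to 0.91 in Snai2 and 0.62 to 0.93 in Twist1. The number of calls fell, over all genes as well: 21 genes were called higher without day 3, 51 without day 5 and 23 without day 7, in place of 1481. Among the members, without day 3 or without day 7 none of the 10 passed the adjusted threshold, without day 5 only Sox9 and Meox1 did, and without day 14 Sox9, Snai2, Scx and Meox1 did, while all 6 stood without day 28. In a sample of whole ventricle, more cells of a type and more RNA per cell cannot be told apart.

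**Figure D1:**
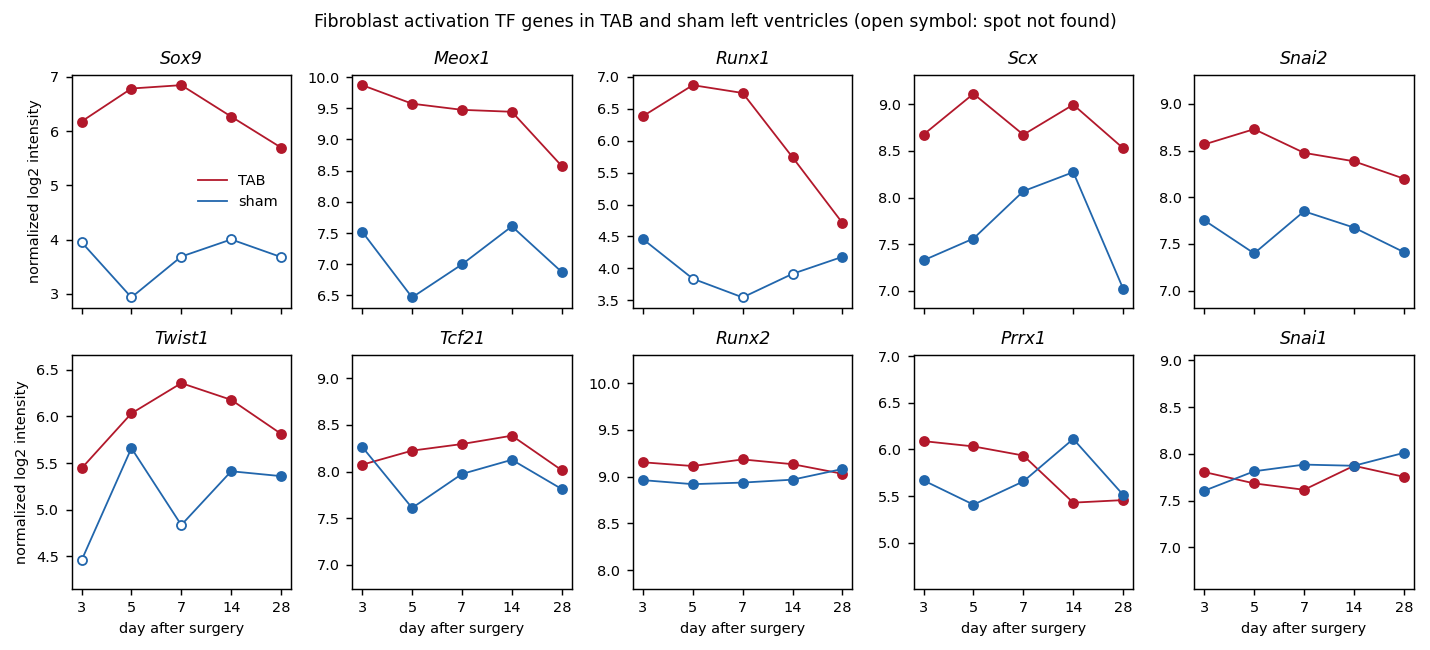
Normalized log2 intensity (vertical axis, set for each gene on its own) of the probe that stands for each gene, by day after surgery (horizontal axis, days evenly spaced), in TAB (red) and sham (blue) samples, 1 sample per point. Open symbols are spots that were not found on the array, among them all 5 sham spots of Sox9; the TAB line lies above the sham line on all 5 days in Sox9, Meox1, Runx1, Scx, Snai2 and Twist1.

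Runx1, the Runt factor best known from blood formation, is also expressed by activated fibroblasts. On days 3, 5, 7, 14 and 28 its log2 intensity in TAB was 6.39, 6.87, 6.75, 5.74 and 4.71. The sham samples of those days read 4.46, 3.84, 3.54, 3.91 and 4.18. The TAB values fell after day 7, the lowest of them, on day 28, lay 0.25 above the highest sham value, and the sham spots of days 5, 7 and 14 were not found on the array. With values near background raised to the first percentile of the found spots, which is 30.1 on sham day 5 and 34.1 on sham day 7 in normalized intensity, against 26.2 in TAB on day 28, the groups overlapped. Over the days the mean log2 ratio was 2.11 (SE 0.40, n = 5 days), a 4.30-fold difference with a 95% confidence interval of 2.20 to 8.43 and a limma adjusted p of 0.0261. Its second probe, found on all arrays but that of sham day 7, differed from sham in the same direction on all 5 days. Over the 10 samples the 2 probes had a Pearson r of 0.965, and the second probe alone gave a mean log2 ratio of 1.51 (limma adjusted p = 0.0352). With that floor, an alternative chosen after seeing the data, the ratio of Runx1 was 1.43 (limma adjusted p = 0.0106). It replaced the sham values of days 5, 7 and 14, so this p leaves out part of the measured sham spread.

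Runx2, the related Runt factor that directs bone formation, was nearly level. Its log2 intensity ran from 9.03 to 9.18 in TAB and from 8.92 to 9.08 in sham. The TAB sample lay above the sham sample of its day on 4 of 5 days, and the groups overlapped only through day 28. The mean log2 ratio of 0.15 had a 95% confidence interval of -0.10 to 0.40 and a limma adjusted p of 0.337, so a change above 1.31-fold lies outside the interval. Runx1 and Runx2 share the RUNX motif pair shown above, and their mean ratios were 2.11 and 0.15, a difference that was not tested.

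Sox9 directs cartilage formation and is switched on in fibroblasts that lay down matrix. In order of day its TAB values were 6.18, 6.78, 6.85, 6.27 and 5.70. Its sham values were 3.95, 2.94, 3.69, 4.004 and 3.68. Every TAB value exceeded every sham value, with a gap of 1.69 between the closest pair, and none of the 5 sham spots was found on its array while all 5 TAB spots were. As measured, the mean log2 ratio was 2.70 (SE 0.29, n = 5 days), with a limma adjusted p of 0.0121, but the sham side of it is only a bound. With each sham spot set at its own value or the first percentile of the found spots of its array, whichever was higher, Sox9 was at least 3.34-fold higher in TAB. The same floor applied to all arrays gave a log2 ratio of 1.74 (limma adjusted p = 0.00112). That floor replaced all 5 sham values of Sox9, so this p leaves out their measured spread and is no stronger evidence.

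Scx, or scleraxis, is the tendon and ligament factor and an activator of collagen genes. In TAB it stood at 8.67, 9.11, 8.67, 8.99 and 8.53, again in order of day. In sham it stood at 7.33, 7.56, 8.07, 8.27 and 7.02. The groups did not overlap, the TAB samples spanned 0.58 and the sham samples 1.25, with the sham sample of day 28 the lowest and that of day 14 the highest. TAB exceeded sham by a mean log2 ratio of 1.15 (SE 0.19, n = 5 days), a 2.21-fold difference (1.62 to 3.02) with a limma adjusted p of 0.021.

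Twist1, a factor of embryonic mesenchyme, was the least separated of the 6. TAB values in order of day were 5.44, 6.03, 6.36, 6.18 and 5.81. Sham values were 4.46, 5.66, 4.84, 5.41 and 5.36. The sham sample of day 5 lay above the TAB sample of day 3, so the groups overlapped, and the sham spots of days 3 and 7, the dimmest, were not found. Its mean log2 ratio was 0.82 (SE 0.19, n = 5 days) and the limma adjusted p was 0.0382. It did not pass with median scaling alone (0.78, limma adjusted p = 0.0678), nor with probes below 1 set to 1 and kept (0.81, limma adjusted p = 0.0729). Tcf21, also a basic helix-loop-helix factor, ran from 8.01 to 8.38 in TAB and from 7.61 to 8.26 in sham. Its mean log2 ratio was 0.24, with an interval of -0.10 to 0.58 (limma adjusted p = 0.265), and the TAB sample of day 3 lay below its sham.

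Snai2, known as Slug, represses epithelial cadherin genes. The TAB samples, by day, read 8.57, 8.73, 8.48, 8.38 and 8.20. The sham samples read 7.75, 7.40, 7.85, 7.67 and 7.41. All TAB values exceeded all sham values, by 0.35 at the closest, and all 10 spots were found. On average the log2 ratio was 0.85 (SE 0.14, n = 5 days), a 1.81-fold difference (1.44 to 2.27) with a limma adjusted p of 0.0208. Snai1, the closely related repressor known as Snail, ran from 7.61 to 7.87 in TAB and from 7.60 to 8.01 in sham. Its mean log2 ratio was -0.09, with an interval of -0.37 to 0.19 (limma adjusted p = 0.615), and the TAB sample was the lower of the pair on 4 of 5 days.

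Meox1, a homeodomain factor, had a smaller error than Sox9 or Runx1. Its log2 intensity in TAB, by day, was 9.87, 9.57, 9.47, 9.44 and 8.57. In sham it was 7.52, 6.47, 7.00, 7.61 and 6.88. The gap between the lowest TAB and the highest sham value was 0.97, every spot was found, and the TAB value of day 28 was the lowest of its group. The mean log2 ratio of 2.29 (SE 0.22, n = 5 days) is a 4.90-fold difference (3.37 to 7.11), with a limma adjusted p of 0.0116. Of all genes, 0.73% had a higher mean log2 ratio than Meox1.

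Prrx1, a homeodomain factor of mesenchyme, was read differently by its 2 probes. The probe that stands for the gene, chosen for its larger summed ratios, ran from 5.43 to 6.09 in TAB and from 5.41 to 6.11 in sham. It gave a mean log2 ratio of 0.12, with an interval of -0.38 to 0.62 (limma adjusted p = 0.722). The brighter probe gave -0.18 (limma adjusted p = 0.35), the 2 probes had the same sign on 3 of 5 days, and their r over the 10 samples was -0.34. No direction can be given for Prrx1.

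**Figure D2:**
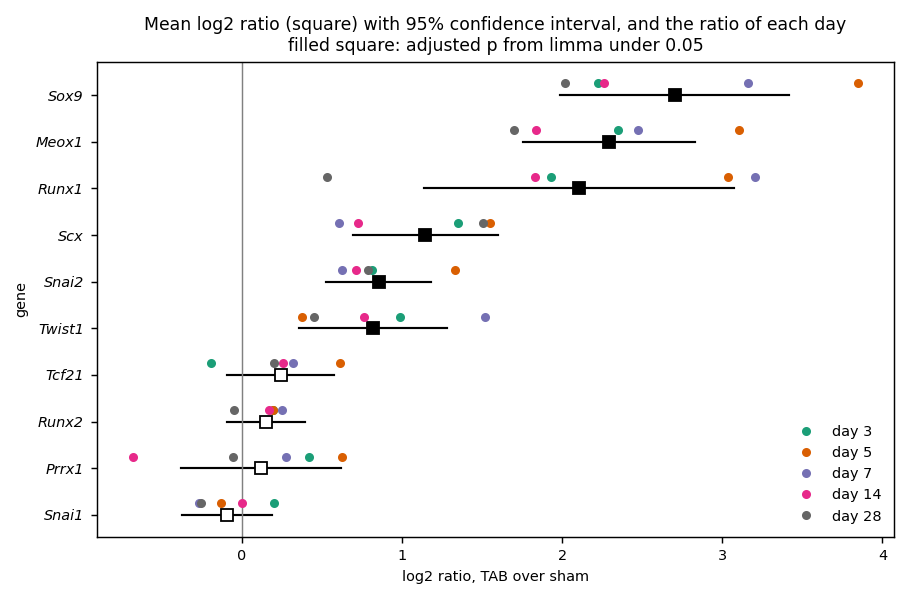
Mean log2 ratio of TAB over sham (squares, horizontal axis) with its 95% confidence interval from limma for the 10 genes (vertical axis), and the log2 ratio of each of the 5 days (coloured points). Filled squares passed an adjusted p of 0.05; their intervals run from the lowest bound of 0.36 (Twist1) to the highest of 3.42 (Sox9), while those of Tcf21, Runx2, Prrx1 and Snai1 span 0.

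The course over the days was described with the rule of the study, by which a gene is differentially expressed on a day when its log2 ratio is more than 2 SDs of all genes of that day away from 0. With 1 sample per operation and day this has no replicate check. By day, from the first to the last, the threshold was a log2 ratio of 1.78, 1.93, 1.75, 1.48 and 1.38. On each day 3 TF genes passed it, as 15 of 50 member-day pairs did in all, and none lay below minus the threshold on any day. Runx1, Sox9 and Meox1 were the 3 on days 3, 5, 7 and 14, and on day 28 Scx stood in the place of Runx1. Of all genes, 3.1%, 4.09%, 4.08%, 3.39% and 3.41% were called higher on these days in turn, and 7.87% of all genes were called lower on at least 1 day. Sox9 and Meox1 passed on all 5 days, as 0.348% of all genes did. With the floor the thresholds were lower, the calls were 17, and Scx on day 5 and Twist1 on day 7 (1.27 against 1.26) were among them.

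Meox1, whose spots were all found, had its highest ratio, 3.10, on day 5 and its lowest, 1.70, on day 28. The ratios of Sox9 and Runx1 had not-found sham spots on all 5 days and on days 5, 7 and 14. Sox9 measured 3.85 on day 5 and 2.02 on day 28, but 1.87 and 1.54 with dim values raised to the first percentile of found spots, and its highest was then 1.93 on day 3. Runx1 measured 3.21 on day 7 and 0.53 on day 28, and with the floor it ran from 1.96 on day 5 to 0.53 on day 28. Snai2 peaked at 1.33 on day 5 and Twist1 at 1.52 on day 7, against a sham spot that was not found, without passing the threshold of those days. The ratio of Scx was 1.35, 1.55, 0.60, 0.72 and 1.50 from the first to the last day, and that of Snai2 was 0.81, 1.33, 0.63, 0.71 and 0.79. The mean ratio of days 3, 5 and 7 was above that of days 14 and 28 in all 10 genes, and it was so in 49.1% of all genes. The difference was 1.54 in Runx1 (95% confidence interval 0.08 to 3.01), 0.88 in Meox1 (0.12 to 1.63), 0.81 in Prrx1 (0.12 to 1.50) and 0.94 in Sox9 (-0.35 to 2.23). With the floor it fell to 1.05 in Runx1 and to 0.28 in Sox9. The brighter probe of Prrx1 gave -0.00791 in place of 0.81, and the sign turned in Scx, Snai1, Snai2 and Tcf21 when 1 day or another was left out. Leaving out 1 day moved the difference of Runx1 to 0.88 (without day 28), that of Sox9 to 0.55 (without day 5) and that of Prrx1 to 0.50 (without day 14). None of these differences passed the test across all genes, where limma called 0 genes, or 0%, with a lowest adjusted p of 0.191. Unadjusted p-values under 0.05 were held by 1766 genes, Runx1, Meox1 and Prrx1 among them, and the lowest adjusted p of the 10 was 0.422. The alternative settings called 0 to 34 genes, none of them a member.

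**Figure D3:**
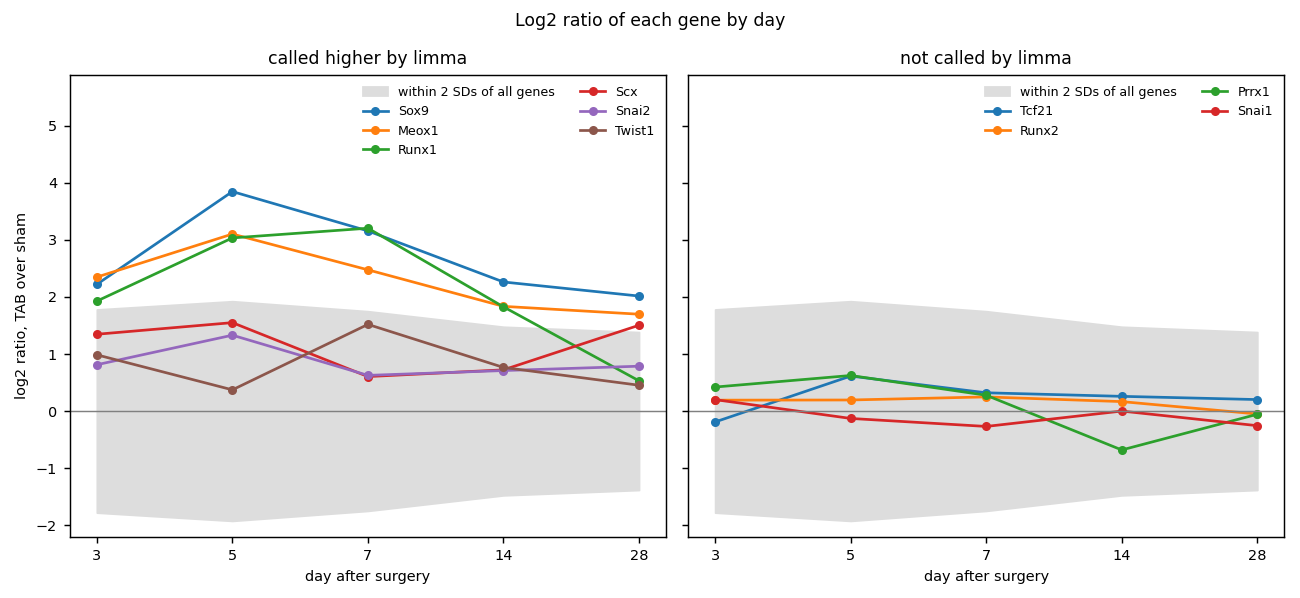
Log2 ratio of TAB over sham (vertical axis) by day after surgery (horizontal axis, days evenly spaced) for the 6 genes called higher by limma (left) and the 4 that were not (right). The grey band spans 2 SDs of all genes on either side of 0 for each day; Sox9 and Meox1 lie above it on every day, Runx1 until day 14, and Scx on day 28 alone.

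The lists of cell type markers moved as follows. Cardiomyocyte markers, which check the labelled tissue, were found on all arrays, and none of the 7 was called. Their summed normalized intensity ran from 199717 to 212563 in TAB and from 196405 to 231097 in sham. Among them Myh6, the adult myosin heavy chain, had a mean log2 ratio of -0.14 and Tnnt2, cardiac troponin T, one of -0.14. Of the fibroblast markers, 8 of 10 passed the filter on low intensity and 6 were called higher, with a median of 1.10 over the 8. Their summed normalized intensity ran from 34114 to 45895 in TAB and from 27327 to 32076 in sham. The collagen gene Col1a2 had a mean log2 ratio of 3.49, the microfibril gene Mfap5 one of 3.35 and the surface marker Thy1 one of 1.77. The matrix proteoglycan Dcn had 0.26 (limma adjusted p = 0.119) and the actin-binding Gsn -0.54 (limma adjusted p = 0.148), and Pdgfra and Col1a1 did not pass the filter.

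Markers of activated fibroblasts had the largest median of the lists, with 8 of the 9 genes that passed the filter called higher and a median of 2.96. Their summed intensity was 11415 to 28280 in TAB and 2318 to 2569 in sham. The collagen crosslinking enzyme Lox had a mean log2 ratio of 4.55 (SE 0.66), the matrix glycoprotein Tnc 4.06 (SE 0.92), the matricellular protein Postn 3.37 (SE 0.23) and Cilp, which binds growth factors in the matrix, 2.99 (SE 0.17), all called higher by limma. The sham spots of Lox were found on 2 of 5 arrays. Acta2, the smooth muscle actin of myofibroblasts, did not pass (0.53, limma adjusted p = 0.284). Leukocyte markers rose too: 7 of 9 that passed the filter were called higher and 1, the T cell gene Cd3e, lower, with a median of 1.13. Their summed intensity was 2546 to 5946 in TAB and 1744 to 2178 in sham. The macrophage genes Cd68 and Emr1 had mean log2 ratios of 2.01 and 1.45. Of 4 proliferation genes, Top2a (4.23) and Aurkb (1.41) were called higher, the sham spot of Top2a being found on 1 of 5 arrays, Mki67, found on 3 TAB arrays and no sham array, was not called (limma adjusted p = 0.0614), Ccnb1 had 0.08 with its one large ratio, 2.62, on day 28, and the summed intensity of the list overlapped, at 338 to 1143 in TAB and 134 to 421 in sham. Runx1 is expressed by leukocytes as well as by fibroblasts, and the part of any of these cell types in its values, or in those of the other TF genes, was not tested.

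The remaining lists stayed closer to 0. None of 6 endothelial, 5 epicardial, 3 neural crest and Schwann cell or 2 skeletal muscle markers was called, and of 4 smooth muscle and pericyte markers only Cspg4 was, at 0.65 (limma adjusted p = 0.0349). The first genes of those lists that passed the filter were Pecam1 at 0.11, the smooth muscle myosin Myh11 at -0.11, the epicardial factor Wt1 at 0.21, the neural crest factor Sox10 at 0.65, on spots found on 5 of 10 arrays, and the myogenic factor Myog at -0.29. The medians were 0.10, -0.18, -0.32, 0.03 and -0.33 in the same order. By day, the median ratio of leukocyte markers fell from 1.59 on day 5 to 0.35 on day 28. The median of the activated fibroblast markers went from 3.08 to 1.85. That of the fibroblast markers was 1.23 on day 5 and 1.25 on day 28, but its genes moved in both directions. Between these days Col1a2 (4.57 to 2.13), Mfap5, Thy1, Lum, Ddr2 and Dcn fell, while Pi16 (0.67 to 1.38) and Gsn (-1.11 to 0.32) rose.

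**Figure D4:**
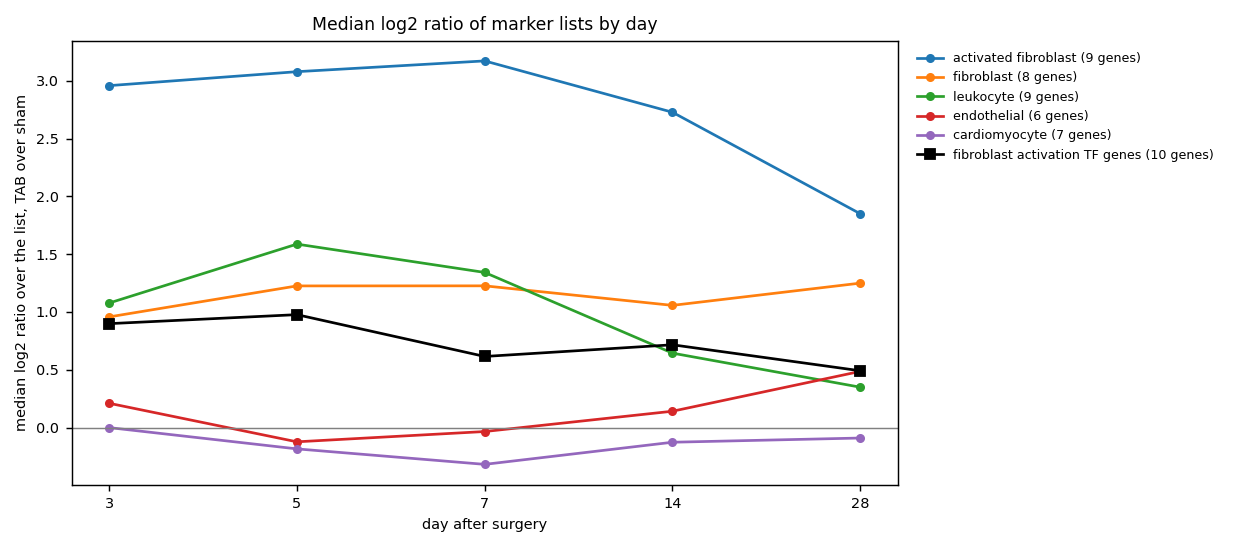
Median log2 ratio of TAB over sham over the genes of each marker list (vertical axis) by day after surgery (horizontal axis, days evenly spaced), with the 10 TF genes in black. The activated fibroblast markers lie highest, between 1.85 and 3.17; the TF genes run from 0.98 on day 5 to 0.49 on day 28.

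Relatives of the 10 factors showed no common direction. Of 21 family relatives, 17 passed the filter, of which 2 were called higher, 2 lower and 13 neither, with a median of 0.05. Prrx2, the paralog of Prrx1, was found on all 5 TAB arrays and on no sham array, and with its sham spots at the same floor as Sox9 it was at least 1.52-fold higher in TAB (limma adjusted p = 0.0204 on the measured values). The helix-loop-helix gene Msc, close to Tcf21, was higher at 0.78 (limma adjusted p = 0.0233). Snai3, with its TAB spots found on 2 of 5 arrays, fell by 1.30 (limma adjusted p = 0.0303) and the tendon homeobox gene Mkx by 0.87 (limma adjusted p = 0.0264). Twist2 at 0.27, Meox2 at 0.14 and the Runx partner Cbfb at 0.45 were not called. Of 22 cofactors and mesenchymal TF genes, such as the Zeb, Tead and Smad genes, 1 was called: Tcf3, which encodes an E protein partner of Twist1, Tcf21 and Scx, at 0.51 (SE 0.11, limma adjusted p = 0.0355). The related genes Tcf12 (0.16, limma adjusted p = 0.427) and Tcf4 (0.28, limma adjusted p = 0.0986) were not called. The median of this list was 0.22.

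Genes that Runx2, Sox9 or Scx are known to drive in skeleton and tendon were also read. Of 22, 15 passed the filter, and 7 were called higher, none lower, with a median of 0.76. The called genes with the largest ratios were Spp1, which encodes osteopontin, at 3.90, Col1a2 at 3.49, the tendon glycoprotein Thbs4 at 2.71, the proteoglycan Bgn at 1.93, the cartilage collagen Col11a1 at 1.38, with its sham spot found on 1 of 5 arrays, and the matrix protein Comp at 1.18. Col1a2 and Comp also stand in the fibroblast lists. The cartilage collagen Col2a1 (0.54), the bone factor Sp7 (-0.05), osteocalcin Bglap (-0.35) and the tendon gene Tnmd (0.76) did not pass, and Acan, Ibsp and Col10a1 were removed by the filter. Of 15 epithelial and mesenchymal genes that Snail and Twist factors regulate, 13 passed the filter, and 6 were called higher and none lower, with a median of 0.05. These were Fn1 (2.80), Sparc (1.65), S100a4 (1.52), Mmp2 (1.50), Mmp14 (1.30) and Vim (1.06). Not called were Mmp9 at 0.05, Cdh11 at -0.30 and Cdh2, which encodes N-cadherin, at -0.24. Of the epithelial genes, Krt18 at -0.72 (limma adjusted p = 0.185) and Cldn1 at -0.02 (limma adjusted p = 0.961) were not called either. The spots of Epcam and Ocln were found on no array, and Cdh1 was removed by the filter.

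The genes most like each TF gene in log2 intensity over the 10 samples were taken by Pearson correlation, as a description in which the difference between both operations enters. For Meox1 they were the elastin crosslinking gene Loxl1 (r = 0.995), the collagen gene Col6a2 (0.992) and the growth factor gene Igf1 (0.990). For Snai2 they were Pcolce, which helps to process procollagen (0.987), Gsto1 (0.986) and Anxa5 (0.985). For Runx1 they were Filip1l (0.992), the Fc receptor gene Fcgr3 of myeloid cells (0.991) and Ppp1r18 (0.985). Sox9 was most like Synpo (0.990), Dpep2 (0.988) and Tgif1 (0.988), Scx like Sfxn3 (0.953), Arhgap6 (0.952) and 1500009L16Rik (0.951), and Twist1 like Gcnt2 (0.963), Atp8b2 (0.953) and Malt1 (0.940). Among the genes that were not called, the closest were Rassf2 for Runx2 (0.963), Egln3 for Tcf21 (0.937) and Casz1 for Snai1 (0.916).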

How the data were processed

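Total RNA of 10 left ventricle samples was labelled with Cy5 and hybridised to Phalanx whole genome arrays, read with GenePix. The authors deposited raw intensity after background subtraction (method not given in the sources used here), detection p-values (10 columns, not used here) and flags, of which a negative one was read as a spot that was not found. Median raw intensity was 34 to 57 per array and 40.2 to 47.3% of spots were not found, and the 5 arrays per operation limit the precision. Following the methods of the study, arrays were scaled to a common median, probes under 1 in any sample removed, quantile normalization applied with rank medians, and log2 taken. The rank medians were taken over all 10 arrays, where the methods state them per condition; medians within each operation were an alternative. A gene was read by the probe with the largest summed absolute log2 ratio. limma 3.58.1 in R 4.3.3 was fitted to all 16113 genes with day as a block, without intensity trend, and p-values were adjusted by Benjamini-Hochberg (threshold 0.05). The fit was tested on simulated data with 200 genes changed. It recovered 73% of absolute log2 changes of 2 and 92% of those of 3, with 14 false calls in all. The TF genes and all gene lists were chosen with earlier results of these data known. From each list up to 6 genes were named, those called with the largest ratio, or else the first of the list; a few others were picked after their values were seen. The 3 most correlated genes were named for each called TF gene and 1 for each of Runx2, Tcf21 and Snai1; that of Prrx1 is not reported here. Other scalings, filters, probe choices, models and the omission of each day were tried.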

Additional observations from a re-analysis of the deposited data

Results flagged for a closer look

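In each operation, and for the log2 ratios, the 5 values of each of the 10 genes were searched for a value far from the others, 30 sets in all, and 2 were found, where chance gives about 1 in 20. The log2 ratio of Runx2 on day 28, -0.0513, lay apart below those of the other 4 days, with a gap of 0.726 of the whole range. The log2 ratio of Snai2 on day 5, 1.33, lay apart above the other 4, with a gap of 0.735 of the range.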

How the results depend on the processing

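The 6 genes called higher stayed 6 in most alternatives. With median scaling only they were 5, without Twist1. With probes below 1 set to 1 they were 4: Runx1 (2.10, limma adjusted p = 0.0547) and Twist1 (0.81, 0.0729) missed the threshold. With the lowest tertile of probes left out they were 5, without Runx1 (1.63, limma adjusted p = 0.0507). Leaving out 1 day gave 0 to 6 calls, and 1 to 1285 genes called lower and 21 to 1488 called higher over all genes. Over all genes the other alternatives called 458 to 2240 higher and 217 to 2225 lower. Without the day (the replicate block) all 6 calls stood (1951 genes higher and 1647 lower), and samples of 1 day deviated from their group means with an r of -0.0165 to 0.113, over 0.1 on day 3 alone. Member-day calls by the 2 SD rule were 9 with probes below 1 set to 1 and 6 at 3 SDs, instead of 15. They were 19 with a log2 ratio of at least 1, 17 with the floor on dim values, and 13 to 16 in the other settings, and 12 with a day left out, as each day had 3. Members without overlap were 4 to 6. With 50 added to the intensities, which shrinks the ratios of dim probes, those of Sox9, Runx1 and Twist1 were 1.08, 0.89 and 0.39, still called. The mean ratio of Prrx1 turned to -0.17 with 50 added to the intensities, -0.18 with the brightest probe and -0.0339 with the mean of its probes, and ran from -0.0127 to 0.317 with a day left out. The early minus late difference of Prrx1 turned to -0.00649 with 50 added and -0.00791 with the brightest probe. Leaving out a day gave early minus late differences of -0.34 to 0.44 for Scx, -0.0703 to 0.19 for Snai1, -0.0288 to 0.323 for Snai2 and -0.16 to 0.23 for Tcf21. None of these early minus late differences passed the test in any setting. Raising values near background, added after seeing the data, moved the median of all genes from -0.034 to 0.0675. Dim spots limit Sox9, Runx1 and Twist1 in sham.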
